A study of Homo sapiens with 2 samples.

Results

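Aminoacyl-tRNA synthetases are the enzymes that attach each amino acid to its own tRNA, and their mRNAs were followed in HEL cells, a human erythroleukemia cell line, after treatment with the test compound L1. The genes were found by name, as an amino acid's letter followed by ARS with or without a closing 1 or 2, together with FARSA, FARSB and EPRS1. This rule found 37 of the 13924 genes with a deposited FPKM value (fragments scaled to gene length and library size). Names ending in 2 were taken as mitochondrial enzymes, which gave 17 genes, and the other 20 were taken as cytosolic. The cells, wild type by their label, received L1 at 1 µM or DMSO at 0.5%, in both cases for 24 h, and 1 mRNA library was sequenced for each condition. Variation between cultures could therefore not be estimated, no p-value is given, and every difference described here is one between these libraries only.

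In the cytosol the charged tRNAs feed the ribosomes that read nuclear genes, and in mitochondria a separate set of enzymes, encoded in the nucleus and imported, charges the tRNAs of the mitochondrial genome. The enzymes fall into class I and class II, which differ in the fold of their catalytic domain. Several cytosolic enzymes sit together with the scaffold proteins AIMP1, AIMP2 and EEF1E1 in the multisynthetase complex. EPRS1 carries both the glutamate and the proline enzyme on a single chain, and the cytosolic phenylalanine enzyme is built from the subunits FARSA and FARSB. KARS1 and GARS1 each make a cytosolic and a mitochondrial form, and they were kept with the cytosolic enzymes. When charging falls short, the kinase EIF2AK4 is known to slow translation and to raise the factor ATF4, which in many cell types switches on amino acid synthesis, amino acid transport and a number of cytosolic synthetase genes.

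The libraries held 32556872 counts for DMSO and 27135647 for L1. With DMSO the synthetases took 0.450% of the counts and with L1 0.479%, and their counts ran from 255 to 12807. Log2 ratios of L1 over DMSO were computed after scaling by edgeR's TMM method, with a 95% interval (exact Clopper-Pearson) that covers counting error only. All 10 erythroid and megakaryocyte-erythroid markers examined, among them GATA1, KLF1 and TAL1, were present in both libraries. Among markers of other cell types, CD3E, EPCAM and ALB had 0 counts in both libraries, CD14 and COL1A1 had 0 in DMSO and 5 in L1, and PECAM1 and KRT18 were present. In bulk RNA, fewer cells of a kind and less RNA per cell cannot be told apart.

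No synthetase was as much as 1.5-fold higher or lower with L1. Over all 13924 genes, 7.80% were higher and 8.30% lower by at least 1.5-fold, while 2.92% were higher and 2.59% lower by at least 2-fold. The log2 ratios of the 37 genes ran from -0.48 for WARS2 to 0.41 for TARS2, with a median of 0.0022 beside -0.022 for all genes. Of the 37 genes, 19 lay above 0 and 18 below, and their interquartile range was 0.279, beside 0.464 for all genes and 0.404 for the 10019 genes that had at least 314 counts in the higher library, the number of the least counted synthetase. At a smaller step of 1.2-fold, 6 synthetases were higher, beside 21.0% of all genes, and 4 were lower, beside 24.6%, and other scalings gave 4 to 7 higher and 3 or 4 lower. The counting interval lay wholly above 0 for 14 synthetases (37.8%, beside 28.5% of all genes) and wholly below 0 for 12 (32.4%, beside 33.6% of all genes). Such calls depend on the counts, and among the 10019 genes with at least 314 counts the shares were 31.2% above and 39.2% below. Under total-count scaling the synthetase calls became 17 above (33.9% of all genes) and 8 below (28.4%). Taken as a sum of counts, the family had a log2 ratio of 0.041 (95% interval 0.030 to 0.052), but the value was 0.0098 with DESeq2 size factors (-0.0010 to 0.021, an interval that holds 0) and 0.091 by total counts (0.080 to 0.10).

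The cytosolic enzymes had a median log2 ratio of 0.093 and a range from -0.13 to 0.31, with 12 of 20 above 0, 5 higher by at least 1.2-fold and 0 lower by that much. The mitochondrial enzymes had a median of -0.025, which became 0.025 under total-count scaling and 0.014 under upper quartile scaling, and a range from -0.48 to 0.41. Of these 17 genes, 7 were above 0 and 1 was higher by at least 1.2-fold (5.88%, beside 21.0% of all genes). Lower by that much were 4 (23.5%), a share near the 24.6% of all genes. The log2 ratio of the summed counts was 0.061 for the cytosolic enzymes (0.050 to 0.073), with values from 0.030 to 0.11 under other scalings and intervals that stayed above 0. For the mitochondrial enzymes it was -0.073 (-0.101 to -0.045), and total-count scaling gave -0.024 with an interval that holds 0 (-0.051 to 0.0044). The plot of log2 ratios by class shows these genes with their intervals.

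**Figure D1:**
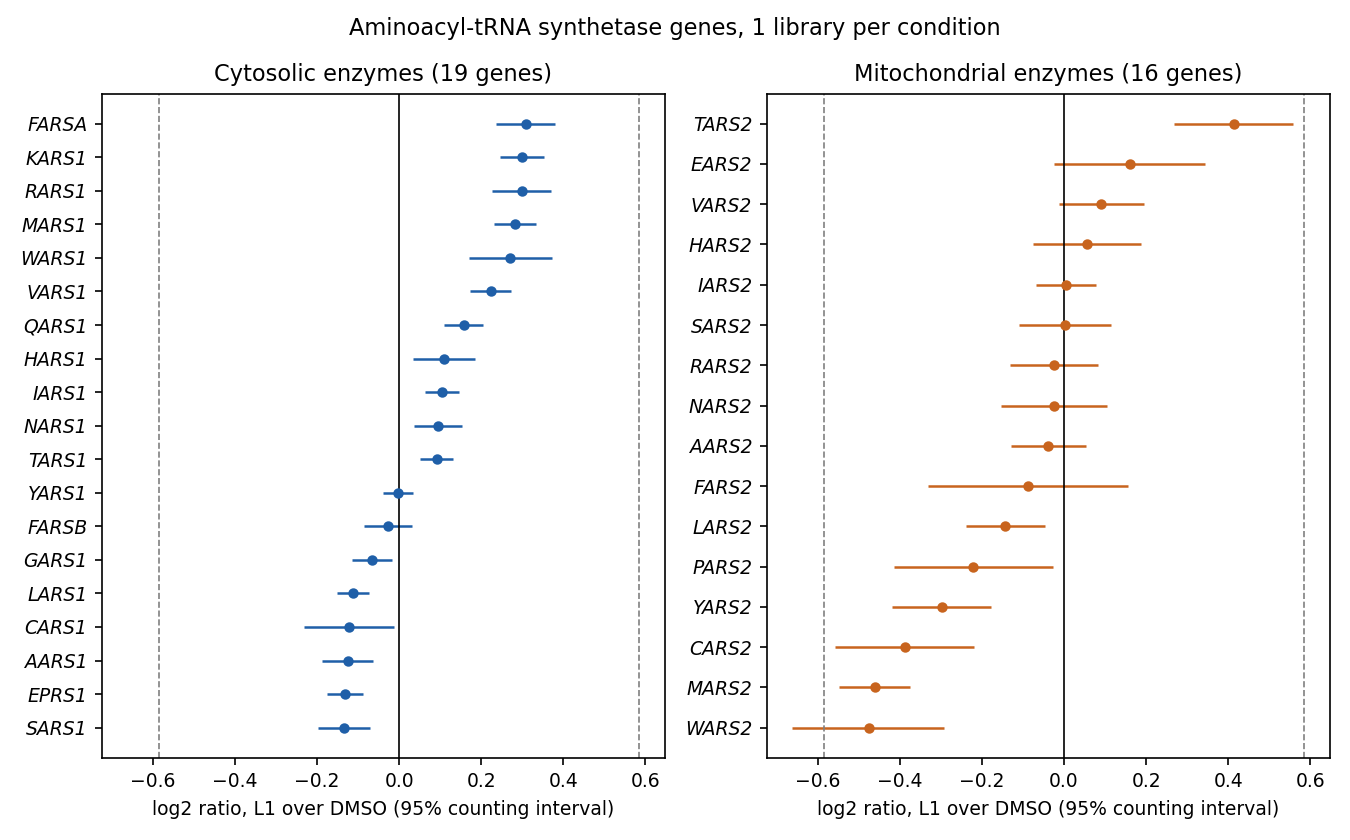
Log2 ratio of L1 over DMSO for 19 of the 20 cytosolic and 16 of the 17 mitochondrial synthetase genes, from 1 library per condition, with the 95% counting interval as a bar, the solid line at 0 and dashed lines at 1.5-fold. The points lie between -0.48 (WARS2) and 0.41 (TARS2), and each point is inside the dashed lines, although the interval of WARS2 reaches past the lower one.

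Among the cytosolic enzymes the highest ratio was that of FARSA, the catalytic subunit of the phenylalanine enzyme, at chr19:12922479-12934037 on the minus strand (hg38, ENSG00000179115). It had 3007 counts with DMSO and 3212 in the smaller L1 library, and its deposited FPKM were 38.9 and 48.1. Its log2 ratio was 0.31 (0.24 to 0.38), or 1.24-fold. FARSB, the other subunit of the same enzyme, had 5115 and 4329 counts and a log2 ratio of -0.028 (-0.086 to 0.031). The subunits of this one enzyme thus differed by 0.34 on the log2 scale, with an interval from 0.24 to 0.43.

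KARS1, the lysine enzyme (chr16:75627474-75648643, minus strand, ENSG00000065427), had 5495 counts with DMSO and 5837 with L1, with FPKM of 42.7 and 52.5 and a log2 ratio of 0.30 (0.25 to 0.35). RARS1, the arginine enzyme (chr5:168486445-168519299, plus strand, ENSG00000113643), had 2978 and 3159 counts, FPKM of 27.4 and 33.7 and the same log2 ratio of 0.30 (0.23 to 0.37). MARS1, the methionine enzyme (chr12:57475445-57517569, plus strand, ENSG00000166986), had 6077 and 6379 counts, FPKM of 27.2 and 33.1 and a log2 ratio of 0.28 (0.23 to 0.33). KARS1, RARS1 and MARS1 were the members of the multisynthetase complex with the highest ratios. WARS1, the tryptophan enzyme, which is also known as an interferon-induced gene, lies at chr14:100333788-100376805 on the minus strand (ENSG00000140105) and had 1546 and 1609 counts with FPKM of 7.65 and 9.23. Its log2 ratio was 0.27 (0.17 to 0.37).

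The exons of MARS1 overlap those of DDIT3 and ARHGAP9 on the opposite strand, and whether the authors' counting used strand is not given in the sources used here. DDIT3, a stress-induced transcription factor, had 106 counts with DMSO and 284 with L1, and ARHGAP9 had 1516 and 1120. The log2 ratio of DDIT3 exceeded that of MARS1 by 1.35 (1.03 to 1.68). KARS1 likewise overlaps TERF2IP on the opposite strand, with 3115 and 2493 counts. The part of these overlaps in the ratios of MARS1 and KARS1 was not tested.

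Other cytosolic enzymes above 0 were VARS1 for valine with a log2 ratio of 0.22 (6442 and 6486 counts), QARS1 for glutamine with 0.16 (7056 and 6787), HARS1 for histidine with 0.11 (2974 and 2768), IARS1 for isoleucine with 0.10 (9968 and 9242), NARS1 for asparagine with 0.095 (4899 and 4514) and TARS1 for threonine with 0.091 (10695 and 9828). Their counting intervals all lay above 0. The ratio of YARS1, the tyrosine enzyme and the synthetase with the most counts, was close to 0, with 12807 counts in DMSO, 11025 in L1 and a log2 ratio of -0.0031 (-0.040 to 0.034).

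At the lower end of the cytosolic enzymes, SARS1 for serine had 4611 counts with DMSO and 3624 with L1 and a log2 ratio of -0.13 (-0.20 to -0.071). EPRS1, the enzyme for glutamate and proline, had 9597 and 7551 counts and a log2 ratio of -0.13 (-0.18 to -0.089). AARS1 for alanine (4774 and 3776 counts) was also at -0.13, CARS1 for cysteine (1538 and 1219) at -0.12, LARS1 for leucine (11788 and 9403) at -0.11 and GARS1 for glycine (7502 and 6187) at -0.065. These 6 intervals lay below 0, except that those of CARS1 and GARS1 held 0 under total-count and upper quartile scaling, and the folds were at most 1.10-fold lower.

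The enzymes of the multisynthetase complex did not share a direction. Of 8 genes, 6 were above 0 and 2 below, and their median log2 ratio was 0.13, beside 0.044 for the 12 cytosolic enzymes outside the complex. KARS1 and EPRS1, at the ends of the complex's range, differed by 0.43 (0.36 to 0.50). The scaffold proteins did not share a direction either. AIMP1, which also has a secreted form with cytokine activity, had 1418 counts with DMSO and 1718 with L1 and a log2 ratio of 0.49 (0.39 to 0.59). AIMP2, the scaffold that holds KARS1, had 1374 and 1020 counts and a log2 ratio of -0.22 (-0.34 to -0.099), so that the gap between AIMP1 and AIMP2 was 0.71 (0.55 to 0.86). EEF1E1 had 1765 and 1753 counts and a log2 ratio of 0.20 (0.11 to 0.30).

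Among the mitochondrial enzymes TARS2, for threonine, had the highest ratio of the whole family. It lies at chr1:150487364-150507609 on the plus strand (ENSG00000143374) and had 730 counts with DMSO and 839 with L1, with FPKM of 5.71 and 7.61. Its log2 ratio was 0.41 (0.27 to 0.56), or 1.33-fold.

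The 4 mitochondrial enzymes at least 1.2-fold lower were those for tryptophan, methionine, cysteine and tyrosine. WARS2 (chr1:119031216-119140671, minus strand, ENSG00000116874) had 632 counts with DMSO and 392 with L1, FPKM of 5.19 and 3.73 and a log2 ratio of -0.48 (-0.66 to -0.29), or 1.39-fold lower. MARS2 (chr2:197705369-197708387, plus strand, ENSG00000247626) had 2864 and 1795 counts, FPKM of 29.8 and 21.6 and a log2 ratio of -0.46 (-0.55 to -0.38), or 1.38-fold lower. The count of MARS2, the second highest of any mitochondrial synthetase in the DMSO library, makes its interval one of the narrower ones in its class.

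CARS2 (chr13:110641412-110713603, minus strand, ENSG00000134905) had 716 and 472 counts, FPKM of 2.16 and 1.65 and a log2 ratio of -0.39 (-0.56 to -0.22). YARS2 (chr12:32727490-32755902, minus strand, ENSG00000139131) had 1354 and 950 counts, FPKM of 19.8 and 16.1 and a log2 ratio of -0.30 (-0.42 to -0.18). The proline enzyme PARS2 (chr1:54756898-54764514, minus strand, ENSG00000162396) had 520 and 385 counts, FPKM of 6.94 and 5.96 and a log2 ratio of -0.22 (-0.41 to -0.028). The leucine enzyme LARS2 (chr3:45388506-45549421, plus strand, ENSG00000011376) had 1996 and 1560 counts, FPKM of 5.06 and 4.58 and a log2 ratio of -0.14 (-0.24 to -0.046). Under total-count scaling the intervals of PARS2 and LARS2 held 0. WARS2 overlaps the exons of the antisense gene AL359915.2, which had 613 and 464 counts, and CARS2 overlaps those of ING1 on the opposite strand, with 412 and 285 counts. Without a stated strand setting, reads of these overlapping genes cannot be told apart.

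For 9 mitochondrial enzymes the interval held 0, although those of EARS2 and VARS2 lay above 0 under total-count and upper quartile scaling. EARS2 for glutamate had a log2 ratio of 0.16 (495 and 477 counts), VARS2 for valine 0.091 (1557 and 1431), HARS2 for histidine 0.055 (1003 and 899), IARS2 for isoleucine 0.0051 (3277 and 2837) and SARS2 for serine 0.0022 (1419 and 1226). RARS2 for arginine had -0.024 (1575 and 1336), NARS2 for asparagine -0.025 (1079 and 915), AARS2 for alanine -0.038 (2158 and 1813) and FARS2 for phenylalanine -0.087 (314 and 255), the last with the lowest counts of the family. Some of these values carry shared sequence. Of the 31-base words in SARS2 transcripts, 42.0% also occur in transcripts of other genes, most often of AC011455.2, a gene on the same strand with 0 counts in both libraries. For VARS2 the share is 22.8%, most often with GTF2H4. Summed with GTF2H4, the VARS2 locus had a log2 ratio of 0.29 (0.20 to 0.38), and HARS2 summed with the overlapping ZMAT2 had -0.038 (-0.10 to 0.027).

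By catalytic class, the 9 class I mitochondrial enzymes had a median of -0.14, and they include the 4 genes at least 1.2-fold lower. The 8 class II mitochondrial enzymes had a median of -0.011, which changed sign under total-count and upper quartile scaling. Among the cytosolic enzymes the median was 0.16 for the 9 class I genes and 0.086 for the 10 class II genes, with EPRS1, which belongs to both classes, left out. These are small sets of unlike genes, and their medians are descriptions.

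Setting each mitochondrial enzyme against the cytosolic enzyme of the same amino acid removes the library scaling, since it cancels in the difference. Of 18 such pairs, in which FARS2 and EPRS1 each appear in more than 1, the mitochondrial gene was the lower one in 13 and the higher one in 5, and the median difference was -0.093. The 95% interval of the difference (Woolf, from the 4 counts) lay below 0 in 8 pairs, above 0 in 3 and held 0 in 7. Neither directions nor intervals were counted over pairs of other genes, so no background share stands beside these numbers. The pairs with the widest gaps were those for tryptophan and methionine. WARS2 minus WARS1 was -0.75 (-0.95 to -0.54), a ratio of ratios of 1.68-fold against the mitochondrial gene, and MARS2 minus MARS1 was -0.74 (-0.84 to -0.64).

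Further intervals below 0 were those of FARS2 minus FARSA at -0.40 (-0.64 to -0.15), RARS2 minus RARS1 at -0.32, YARS2 minus YARS1 at -0.30, CARS2 minus CARS1 at -0.27, VARS2 minus VARS1 at -0.13 and IARS2 minus IARS1 at -0.099. The difference took the other sign for threonine, where TARS2 minus TARS1 was 0.32 (0.17 to 0.47), for glutamate, where EARS2 minus EPRS1 was 0.29 (0.11 to 0.48), and for serine, where SARS2 minus SARS1 was 0.14 (0.0097 to 0.26). YARS1 overlaps the exons of S100PBP on the opposite strand, with 1792 counts with DMSO and 994 with L1, and EARS2 those of UBFD1, with 335 and 327. SARS2, whose interval only just left out 0, overlaps MRPS12 on the opposite strand, with 1587 and 1466 counts. Summed with GTF2H4 on the same strand, the VARS2 locus had a log2 ratio of 0.29, above VARS1 at 0.22. That sum takes in all counts of GTF2H4. How reads of the overlap alone bear on the valine difference was not tested. The plot of these differences orders the pairs from tryptophan to threonine.

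**Figure D2:**
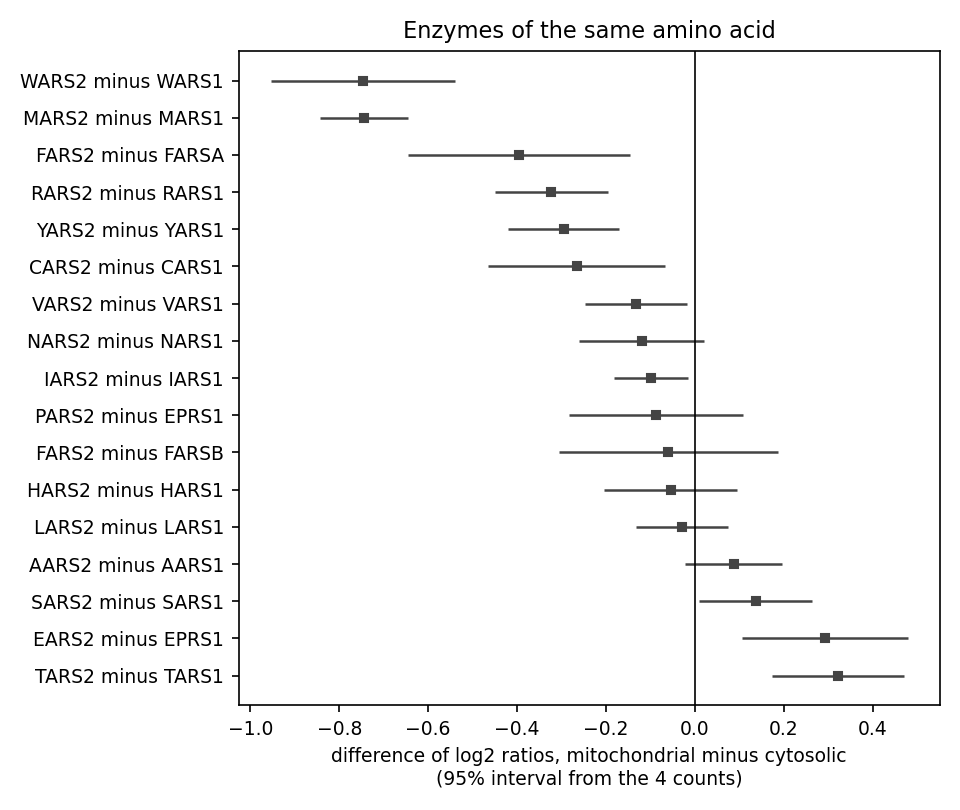
Difference of log2 ratios between the mitochondrial and the cytosolic enzyme of the same amino acid for 17 of the 18 pairs, with its 95% interval from the 4 counts as a bar and a line at 0. The differences run from -0.75 for WARS2 minus WARS1 to 0.32 for TARS2 minus TARS1, and 13 of 17 points lie to the left of 0.

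The level of each enzyme was read in 2 ways. By deposited FPKM the highest synthetase in both libraries was TARS1 (79.0 in DMSO and 84.2 in L1), and EPRS1 stood at 56.7 and 51.7. The lowest in DMSO was FARS2 at 2.04, close to NARS2 at 2.07 and CARS2 at 2.16. The gene lengths behind these FPKM, worked out from the counts, were often much longer than the coding transcript. For HARS1 the length was 14061 bases beside 1945 for the GENCODE transcript with the longest coding sequence, and for RARS2 it was 17514 beside 1818, so FPKM gives such genes a low level. The level was therefore also taken per kilobase of that coding transcript in CPM, counts scaled to library size.

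On this second scale the order in DMSO began with TARS1 (132 in DMSO and 141 in L1), YARS1 (124 and 123) and GARS1 (89.0 and 85.1). QARS1 (78.0 and 87.0), LARS1 (77.3 and 71.5), SARS1 (76.6 and 69.8) and KARS1 (70.9 and 87.3) came next, and with L1 KARS1 and QARS1 stood above GARS1. The cytosolic enzymes had a median of 60.7 in DMSO and 60.9 in L1, and the mitochondrial ones of 13.4 and 13.7. The lowest cytosolic genes were CARS1 (17.4 and 16.0) and WARS1 (23.2 and 28.0). The highest mitochondrial genes were MARS2 (29.6 and 21.5), IARS2 (28.8 and 28.9), SARS2 (27.2 and 27.2) and RARS2 (27.1 and 26.6), so the levels of the classes overlapped. The plot of both libraries against each other shows this overlap near the line of equal levels.

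**Figure D3:**
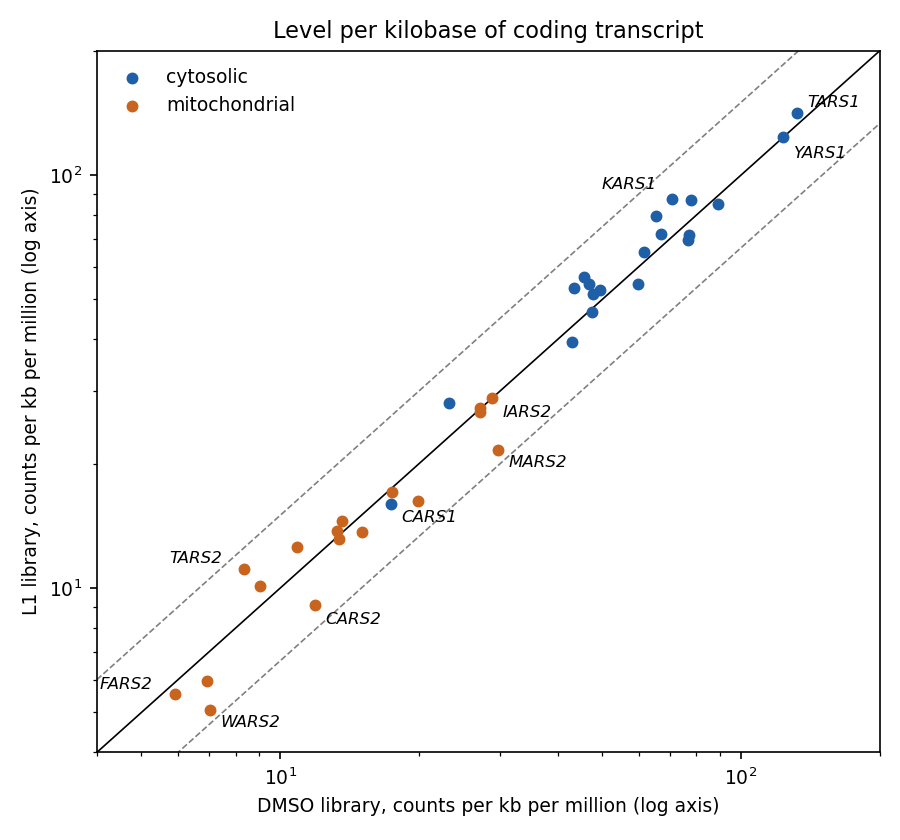
Level of each synthetase gene in the L1 library against the DMSO library, in scaled counts (CPM) per kilobase of coding transcript, on log axes, with the solid line at equal levels and dashed lines at 1.5-fold. Cytosolic genes reach 141 (TARS1 with L1), mitochondrial genes reach 29.6 (MARS2 with DMSO), and each of the 37 points lies inside the dashed lines.

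Within the amino acid pairs, the cytosolic gene had the higher coding-kilobase level in 18 of 18 pairs in both libraries. The ratio was smallest for cysteine, at 1.46 in DMSO and 1.76 in L1, and largest for threonine, at 15.8 and 12.7. By FPKM the cytosolic gene was the higher one in 15 of 18 pairs in DMSO and in 16 with L1. The pair that switched was methionine, where MARS1 stood at 0.914 times the FPKM of MARS2 in DMSO and at 1.53 times with L1, and on the coding-kilobase scale the same ratio went from 2.21 to 3.69. Taken over the family, the mitochondrial enzymes held 20.6% of the summed FPKM in DMSO and 18.3% with L1. On the coding-kilobase scale their share was 17.3% in DMSO and 15.9% with L1.

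The promoters of synthetase genes were examined for a motif of the response to amino acid shortage, since several of these genes are known to answer to ATF4. The motif searched was TGATGNAA, the core of the C/EBP-ATF response element, on both strands, in the RefSeq promoter windows of GRCh38.p14, which run from 250 bases before to 50 bases after each start. Promoters were found for 30 of the 37 genes, in 39 windows, and those of the others, among them AARS2, LARS1, VARS1, VARS2 and YARS1, were not analysed here. The motif stood in 8 of the 30 genes, 7 of 16 cytosolic and 1 of 14 mitochondrial. Of the 39 windows 20.5% held it, beside 3.62% of all 35116 promoters and 287 of the 14375 promoters of genes with an FPKM value. A match of these letters is a description and not a bound site. The matches are printed below 5′ to 3′ on the strand of the gene, each with 11 bases on either side, the motif or its reverse complement in capitals.
AARS1, chr16:70289675-70289704, minus: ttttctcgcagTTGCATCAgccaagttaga
CARS1, chr11:3057407-3057436, minus: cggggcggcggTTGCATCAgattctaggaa
GARS1, chr7:30594834-30594863, plus: ttacgcggcgaTTTCATCAtgctccgagcc
IARS1, chr9:92293692-92293721, minus: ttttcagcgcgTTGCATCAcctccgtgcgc
MARS1, chr12:57488053-57488082, plus: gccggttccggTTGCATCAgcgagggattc
NARS1, chr18:57621804-57621833, minus: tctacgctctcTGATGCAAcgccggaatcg
TARS1, chr5:33440956-33440985, plus: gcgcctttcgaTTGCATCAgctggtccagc
YARS2, chr12:32756076-32756105, minus: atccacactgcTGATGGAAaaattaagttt

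The letters TTGCATCA recur in AARS1, CARS1, IARS1, MARS1 and TARS1, and NARS1 carries the same site in the other direction. The 7 cytosolic genes with the motif did not share a direction with L1. Their log2 ratios were -0.13 for AARS1, -0.12 for CARS1, -0.065 for GARS1, 0.091 for TARS1, 0.095 for NARS1, 0.10 for IARS1 and 0.28 for MARS1, with a median of 0.091 and 4 of 7 above 0. The 9 cytosolic genes whose windows lack it had a median of 0.16, with 6 of 9 above 0. Over both classes the medians were 0.013 for the 8 genes with it and -0.011 for the 22 without.

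The amino acid response itself was mixed. ATF4 mRNA had 4829 counts with DMSO and 3820 with L1 and a log2 ratio of -0.13 (-0.19 to -0.064), and ATF4 is known to be regulated largely through its translation, which these libraries did not measure. Of the 28 genes listed for this response, 25 had an FPKM value, with a median log2 ratio of -0.095, 11 above 0 and 14 below. Of the 25, 2 were at least 2-fold higher, beside 2.92% of all genes, and 0 were 2-fold lower, beside 2.59%. Those 2 were DDIT3 (1.63, 1.31 to 1.97) and DDIT4, an inhibitor of mTORC1 signalling (178 and 355 counts, 1.21). PPP1R15A, the subunit that reverses the translational block, stood at 0.66 (3952 and 5403). At the other end were PSAT1 of serine synthesis (3237 and 1755 counts, -0.67), ASNS, the asparagine synthetase that is a standard ATF4 target (1676 and 983, -0.56), and the cationic amino acid transporter SLC7A1 (12735 and 7845, -0.49). The members outside the FPKM table were VLDLR with 27 and 29 counts, STC2 with 0 and 3, and NUPR1 with 0 in both.

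A second motif, CCGGAAG, the core of ETS factor sites, was chosen after the promoters had been seen. On both strands it was in 16 of the 30 genes (9 cytosolic and 7 mitochondrial) and in 48.7% of the 39 windows, beside 10.3% of all promoters and 17.7% of those of genes with an FPKM value. The median log2 ratio was 0.073 for the 16 genes with it and -0.026 for the 14 without. Within the cytosolic class the medians were 0.095 with it and 0.10 without, and within the mitochondrial class 0.0022 and -0.087. HARS1 and HARS2 share such a promoter, since they lie head to head on opposite strands with starts 85 bases apart. The 84 bases between the starts are shown on the plus strand, with the motif and its reverse complement in capitals, because both genes' windows hold the same letters.
HARS1 to HARS2, chr5:140691371-140691454: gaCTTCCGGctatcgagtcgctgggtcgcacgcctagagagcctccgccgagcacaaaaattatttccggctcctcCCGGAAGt
The log2 ratios on its sides were 0.11 (0.034 to 0.19) for HARS1 and 0.055 (-0.076 to 0.19) for HARS2, which differed by less than the counting error (difference -0.054, -0.20 to 0.095). The exons of HARS1 overlap those of HARS2 and of WDR55 (1984 and 1659 counts) on the opposite strand, so reads of these genes cannot be told apart without a stated strand setting. Their levels were less alike, at 47.8 and 13.3 per coding kilobase in DMSO.

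Genes around the synthetases were listed by role. Of 27 genes of tRNA maturation and ligation in the FPKM table the median log2 ratio was 0.075, with 18 above 0 and 2 at least 1.5-fold lower, a share near the 8.30% of all genes. Those 2 were TSEN15, a subunit of the tRNA splicing endonuclease (1423 and 773 counts, -0.67), and RPP21, a subunit of RNase P (467 and 268, -0.59), while the RNA kinase CLP1 (481 and 593, 0.52) and POP4 of RNase P (1374 and 1568, 0.40) stood highest. The tRNA export factor XPOT was at 0.32 with 7175 and 7702 counts, a value chosen after it was seen. RPP25 had 0 counts in both libraries.

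Downstream of charging, the 8 genes listed for cytosolic elongation, among them the kinase EEF2K, had a median of -0.11, with 1 above 0. EEF2, the translocation factor, had 107469 and 74008 counts and a log2 ratio of -0.33 (-0.34 to -0.31), EEF1A1, which carries charged tRNAs to the ribosome, 280975 and 208449 counts and -0.22, and EEF1B2, its exchange factor, 18583 and 13967 counts and -0.20. EIF5A, the hypusine-containing factor, was the exception with 12327 and 12831 counts and 0.27. The 15 mitochondrial translation factors had a median of -0.12 with 6 above 0, and they ran from MRRF, the ribosome recycling factor (1019 and 544 counts, -0.69), to TSFM, the exchange factor of mitochondrial EF-Tu (949 and 1536 counts, 0.91, interval 0.79 to 1.03). GFM2 (1340 and 849, -0.45) and MTIF3 (777 and 980, 0.55) lay between.

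The 16 genes for enzymes that modify mitochondrial tRNAs had a median of 0.15, with 10 above 0 and 9 intervals above 0 (28.5% of all genes), and the pseudouridine synthase PUS1 (1373 and 1786 counts, 0.59), the thiolation enzyme TRMU (1300 and 1558, 0.47) and the methyltransferase TRMT61B (452 and 540, 0.47) stood highest. GTPBP3 (718 and 482, -0.36) and TRIT1 (1520 and 1104, -0.25) stood lowest. The 8 genes of tRNA-dependent amidation, formylation and selenocysteine insertion had a median of 0.060, and SECISBP2, which binds the selenocysteine element of mRNAs, was at -0.43 with 2051 and 1309 counts. Of 5 synthetase-like and proofreading genes, AARSD1, related to the editing domain of AARS1, was at 0.60 (609 and 795 counts), and the pseudogene PRORSD1P was at -1.07 (175 and 72 counts, interval -1.48 to -0.66). The strip plot sets these lists beside all genes.

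**Figure D4:**
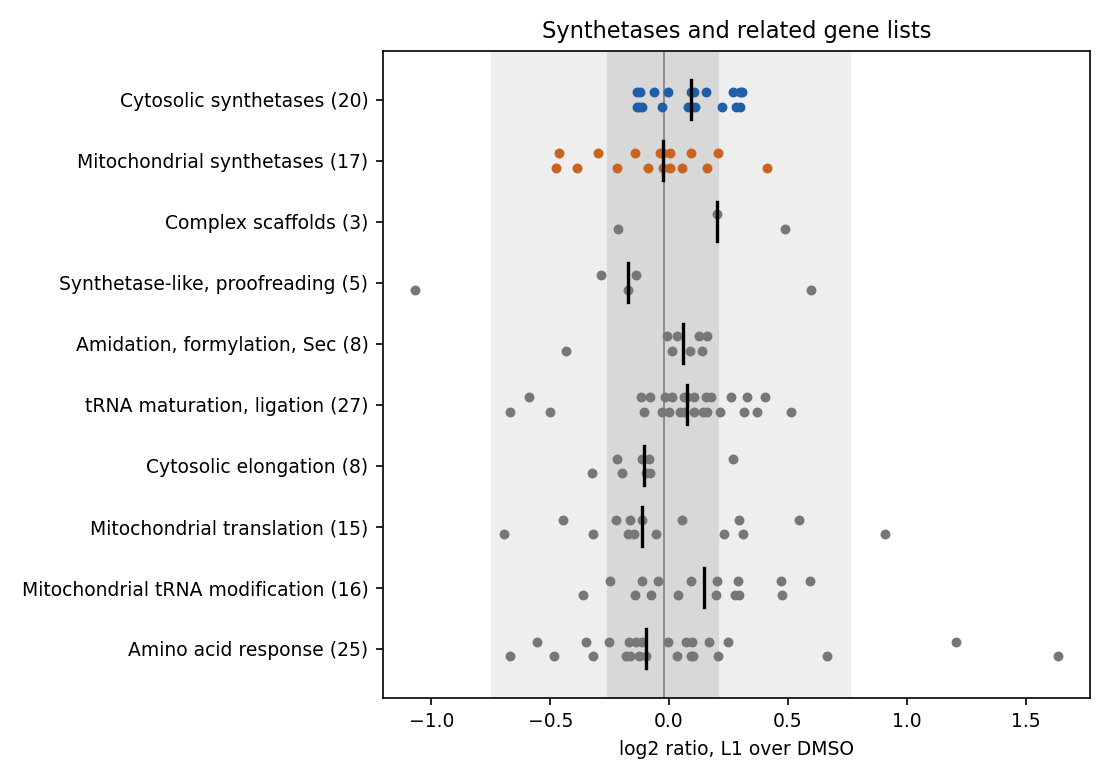
Log2 ratio of L1 over DMSO for each gene of the synthetase classes and of 8 related lists, with the number of genes in brackets, a black bar at each list's median, dark grey shading for the interquartile range and light grey from the 5th to the 95th percentile of all 13924 genes, and a grey line at their median of -0.022. The synthetases keep within -0.48 and 0.41, inside the light band, whereas PRORSD1P (-1.07), TSFM (0.91), DDIT4 (1.21) and DDIT3 (1.63) lie outside it.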

How the data were processed

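Messenger RNA of HEL cells was sequenced in 1 library for DMSO and 1 for L1. The authors deposited a table of raw counts that covers 61806 Ensembl genes and is not normalized, and FPKM for 13924 genes, all of which had a CPM of at least 1.01 in both libraries. The submitters' processing notes name fastp 2.0, HISAT2 2.1.0, StringTie and build hg38, and the counting program, annotation release and strand setting are not given in the sources used here. One row of the FPKM tables names no gene and was left out. The sum of counts was 32556872 (DMSO) and 27135647 (L1).

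Counts were scaled with edgeR 4.0.16 (TMM, in R 4.3.3), which gave a library ratio of 1.16 that the deposited FPKM also carry. Ratios and intervals were computed with no prior count in Python (3.11.15; scipy 1.17.1, pandas 2.3.3, numpy 2.4.6), and matplotlib 3.10.9 drew the figures. The 95% intervals treat reads as independent and cover counting error only. The median interval of a synthetase was 0.075 wide on either side (log2). The scripts were tested on simulated counts. Positions and overlaps are from GENCODE 29. The background is every gene of the FPKM table. Alternatives were total counts, DESeq2 1.42.0 size factors and upper quartile scaling, a prior count of 2, and log2(FPKM + 0.1) and log2(FPKM + 1). The 1.2-fold step, the count of intervals on 1 side of 0, the background of genes with at least 314 counts, summed same-strand genes, levels per coding kilobase and the CCGGAAG search were added after the data were seen. Every synthetase is named except 2 that are not reported here, and of each other list, the cell type markers apart, the genes past 2-fold and up to the 3 farthest from 0 on each side with at least 100 counts. The genes and lists were chosen with earlier results of these data known. Protein sequences were not analysed here.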

Additional observations from a re-analysis of the deposited data

How the results depend on the processing

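With 1 library per condition no result has a replicate check, leaving out a replicate was not possible, and the depth limits a difference that can be seen in the rarest synthetase, FARS2, to about 0.24 on the log2 scale. No paired analysis was possible because there is only 1 library for DMSO and 1 for L1. No synthetase whose interval lay on 1 side of 0 after TMM scaling changed sign under another scaling. Log2 ratios whose interval held 0 could change sign, as those of YARS1, FARSB and AARS2 did under total-count scaling. The counts of synthetases past 1.5-fold and 2-fold stayed at 0 under every scaling and pseudocount. The median of the cytosolic enzymes ran from 0.062 to 0.143 and that of the mitochondrial enzymes from -0.056 to 0.025, so the sign of the latter depended on the scaling, while the difference between them ran from -0.118 to -0.109. Interval calls depended on the scaling too, with 13 to 17 synthetases above 0 and 8 to 13 below. Total-count scaling moved 7 of the 37 log2 ratios out of their counting interval and upper quartile scaling moved 1. When only pairs with an interval that leaves out 0 were counted, the mitochondrial gene was the lower one in 8 in place of 13. Summing same-strand overlapping genes moved VARS2 from 0.091 to 0.29, above VARS1 at 0.22, and left 5 of 6 loci within their interval.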

Other observations

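The tRNAs that the mitochondrial enzymes charge are encoded by the mitochondrial genome itself, and reads were counted on their genes in both libraries. The libraries were made from captured mRNA, a method that is not designed for tRNAs. Of 22 genes, 21 had an FPKM value, and their median log2 ratio was 0.18, with 12 above 0 and 9 below. Of the 21, 3 were at least 2-fold higher with L1, beside 2.92% of all genes, and 0 were 2-fold lower, beside 2.59%. Those 3 were MT-TF for phenylalanine (410 and 819 counts, in the order DMSO and L1, with a log2 ratio of 1.21, 1.04 to 1.39), MT-TG for glycine (122 and 220, 1.06, 0.74 to 1.39) and MT-TL2 for leucine (107 and 189, 1.03, 0.68 to 1.39). Among genes with at least 100 counts in the higher library, the lowest were MT-TK for lysine (203 and 126, -0.47, -0.81 to -0.15), MT-TW for tryptophan (159 and 112, -0.29) and MT-TT for threonine (373 and 270, -0.25, -0.48 to -0.023). The interval of MT-TW held 0 (-0.65 to 0.065).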
